A study of Mus musculus with 14 samples.

Results

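The insulin-like growth factor (IGF) axis was followed in brain through 9 genes picked by name: the ligands Igf1 and Igf2, the receptors Igf1r and Igf2r, and the binding proteins Igfbp2, Igfbp3, Igfbp4, Igfbp5 and Igfbp6. All 9 were among the 56748 genes of the count table and all 9 were among the 18170 genes expressed highly enough to be tested. RNA-seq was performed on brains of 8 Riknull mice and 6 WT littermates at P14 (postnatal day 14), with 1 side of each brain making 1 library. Riknull mice are homozygous for a short deletion in the first intron of 2310061I04Rik (Rik), which arose in a single embryonic stem cell clone and was carried on C57BL/6, and WT mice carry the intact gene on the same background. Both sexes were used: the labels give 7 males and 1 female among Riknull mice, and 2 males and 4 females among WT mice.

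In this pathway Igf1 and Igf2 are secreted growth factors that signal through the tyrosine kinase receptor encoded by Igf1r, and through it to insulin receptor substrates, PI3K, Akt and mTOR. Igf2r encodes the cation-independent mannose 6-phosphate receptor, which takes IGF2 into the cell for degradation in lysosomes and also carries newly made lysosomal enzymes to their destination. Most extracellular IGF is held by the IGF binding proteins, which lengthen its life and can either limit or deliver it to receptors. In the postnatal rodent brain Igf1 comes from neurons and microglia and promotes growth and myelination, whereas Igf2 comes mainly from the meninges, the choroid plexus and blood vessels.

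Before the members are described, the libraries need an account. Library totals were 15183130 to 28012811 counts in Riknull mice and 18102343 to 30993890 counts in WT mice. Rik, the mutated gene, was measured at 7.44 to 10.6 CPM (counts scaled to a common library size with TMM factors) in the 8 Riknull libraries and at 68.9 to 79.4 CPM in the 6 WT libraries, which gives -3.02 on the log2 scale (SE 0.0676, adjusted p = 4.32e-15 by edgeR). The genotype labels and Rik therefore matched in every library, but in 2 libraries, WT 1 and WT 6, the X- and Y-linked transcripts went against the labelled sex. Riknull 5 and Riknull 8 carried pituitary RNA, with Gh at 44.5 and 185 CPM, against at most 0.961 CPM in the other libraries. Neuronal, astrocytic and oligodendrocyte markers were plentiful in all libraries of this brain tissue.

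The libraries also fell into 3 sets that crossed genotype. They came from average-linkage clustering of the tested genes, without those on chromosomes X and Y. Set 1 held Riknull 1 and WT 1, and set 2 held Riknull 2, 3, 4 and 5 with WT 2 and 3. Set 3 held Riknull 6, 7 and 8 with WT 4, 5 and 6. The labels name no litter, date or lane, so what the sets are was not tested. The summed CPM of 4 oligodendrocyte markers was 8317 to 9666 in set 2, below the 12290 to 13760 of set 1 and the 11590 to 15200 of set 3. The sets were found in these same counts, so differences between them are descriptions only. Each member is given first with genotype alone (the comparison the study makes) and then with the 3 sets as a block. The block is an alternative chosen after the data were seen, and its p-values take the sets as known. Other genes are given with genotype alone unless the block is named.

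With genotype alone, 1 of the 9 members was called changed at an adjusted p of at most 0.05, and that was Igfbp5, higher in Riknull brains. Among all 18170 genes, 1.12% were called higher and 2.20% lower, and the members' count of 1 is set against that background. With the 3 sets as a block, 4 members were called and all 4 were higher in Riknull brains: Igf2, Igf2r, Igfbp2 and Igfbp5. That fit called 8.12% of all genes higher and 7.29% lower. None of the 9 had all 8 Riknull libraries above all 6 WT libraries, which 0.517% of all tested genes had. The median log2 fold change of the 9 members was 0.12 with genotype alone and 0.10 with the block, against medians of 0.00 and -0.00 over all genes tested.

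**Figure D1:**
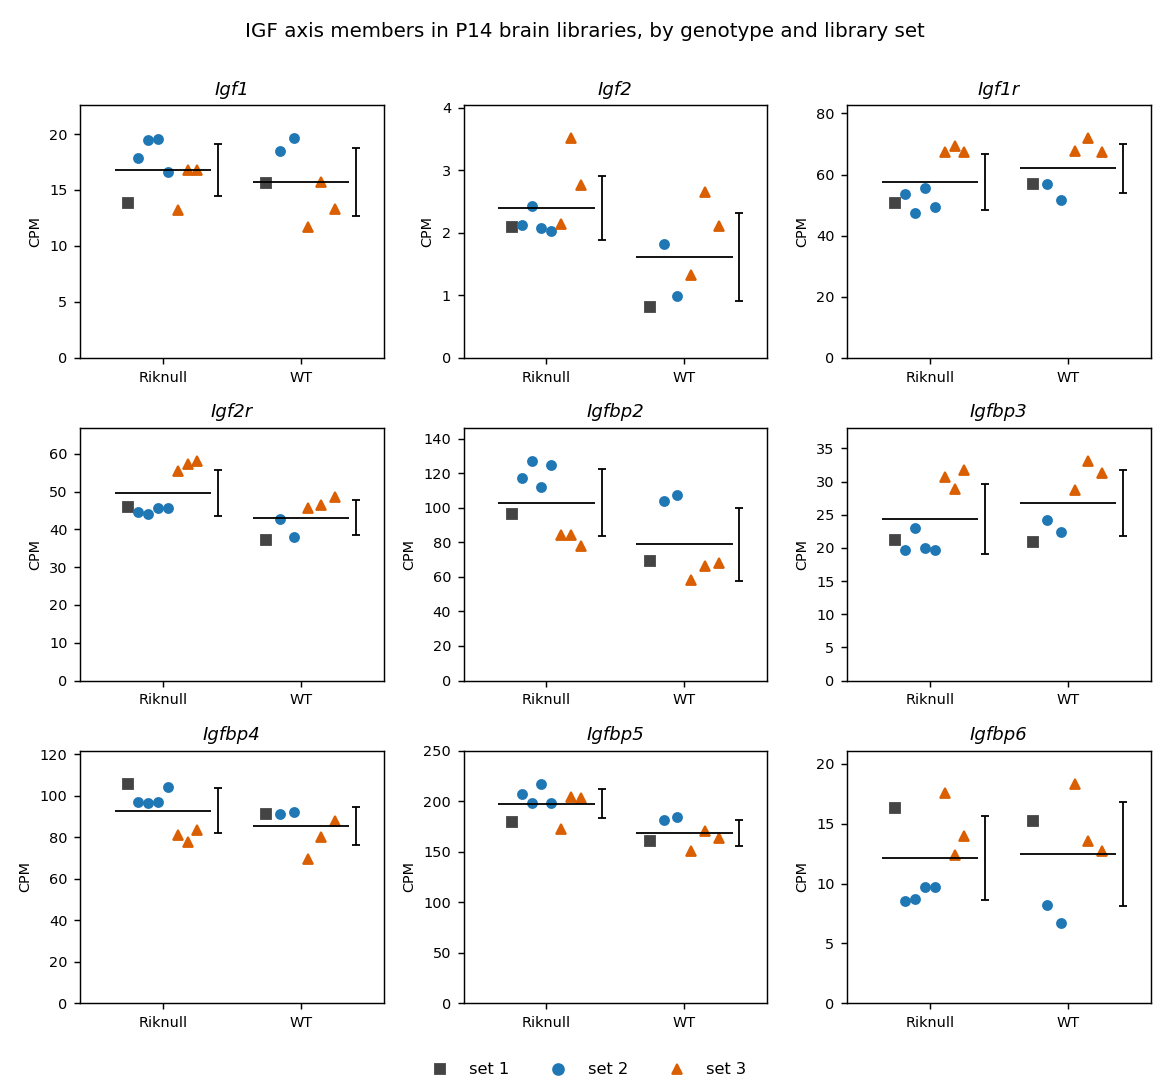
CPM of the 9 members in each library, Riknull on the left and WT on the right of each panel, with symbols for the 3 library sets. Horizontal lines are group means and the bars beside them are ± 1 SD (n = 8 Riknull and 6 WT). Igfbp5, Igfbp2 and Igf2r are higher in Riknull than in WT within each set, and Igf1r and Igfbp3 separate by set rather than by genotype.

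The promoters of Igfbp5, Igfbp2 and Igf2r are shown because these 3 members lay higher in Riknull brains within every library set. Each window is 300 bases, build GRCm38.p6, reading 5′ to 3′ from 250 bases before the RefSeq gene start to 50 bases after it. For these 3 genes the RefSeq start differs from the GENCODE start given with each gene below. Capitals mark matches on either strand to the E-box CACGTG, the GC box GGGCGG, or the A/T-rich boxes TATAAA and TATTTAAA, motifs picked once the windows had been read.
Igfbp5, chr1:72874816-72875115, minus strand: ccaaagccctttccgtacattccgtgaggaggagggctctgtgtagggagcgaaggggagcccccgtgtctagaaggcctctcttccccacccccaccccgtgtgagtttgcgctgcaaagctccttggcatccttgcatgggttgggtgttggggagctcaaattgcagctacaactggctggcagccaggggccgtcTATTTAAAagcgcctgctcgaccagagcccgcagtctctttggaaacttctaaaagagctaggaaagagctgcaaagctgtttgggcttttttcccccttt
Igfbp2, chr1:72824230-72824529, plus strand: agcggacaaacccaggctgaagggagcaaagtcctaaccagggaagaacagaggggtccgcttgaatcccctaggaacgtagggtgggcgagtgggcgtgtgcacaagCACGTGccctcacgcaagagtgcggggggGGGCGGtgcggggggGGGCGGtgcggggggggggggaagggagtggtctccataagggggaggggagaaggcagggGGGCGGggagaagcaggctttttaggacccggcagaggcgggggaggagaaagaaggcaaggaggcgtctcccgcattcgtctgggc
Igf2r, chr17:12769657-12769956, minus strand: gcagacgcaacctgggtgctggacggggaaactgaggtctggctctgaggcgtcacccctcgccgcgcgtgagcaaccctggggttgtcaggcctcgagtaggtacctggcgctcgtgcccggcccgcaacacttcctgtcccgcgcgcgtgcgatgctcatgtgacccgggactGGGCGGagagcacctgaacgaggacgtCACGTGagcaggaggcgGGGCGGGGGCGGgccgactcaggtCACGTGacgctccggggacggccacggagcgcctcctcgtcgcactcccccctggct
The Igfbp5 window held 1 TATTTAAA, starting 51 bases before the RefSeq gene start. That motif was present in 1.81% of the 32851 RefSeq mouse windows of this length. The Igfbp2 window held 1 CACGTG and 3 GGGCGG, and the Igf2r window held 2 CACGTG and 3 GGGCGG, of which the last 2 abut. CACGTG occurs in 7.15% of all windows, GGGCGG in 35.7% and TATAAA, which none of the 3 held, in 13.6%. These matches describe the letters of the windows only, and the E-box and GC box were not shared with Igfbp5.

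Igfbp5, a binding protein that associates with extracellular matrix, lies at chr1:72857932-72874884 on the minus strand (GRCm38, GENCODE M21), 5.5 kb from Igfbp2 on the opposite strand. It was the member with the most counts, 2574 to 5740 per library. Its level was 173 to 217 CPM in Riknull brains (median 201) and 150.4 to 185 CPM in WT brains (median 167). The groups overlapped slightly, since Riknull 6 and Riknull 1 lay within the WT range and the other 6 Riknull libraries lay above it. The means were 198 ± 14.7 CPM in Riknull and 169 ± 13.1 CPM in WT (SD, n = 8 and 6), which differ by 0.23 on the log2 scale (SE 0.0574, edgeR adjusted p = 0.0365).

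Split by set, Igfbp5 was higher in Riknull brains each time. In set 1 it was 180 CPM in Riknull 1 and 161 CPM in WT 1. In set 2 it was 198 to 217 CPM in 4 Riknull libraries and 182 to 185 CPM in 2 WT libraries. In set 3 it was 173 to 205 CPM in 3 Riknull libraries and 150.4 to 171 CPM in 3 WT libraries. No Riknull library overlapped a WT library of its own set, a pattern that 3.96% of all tested genes showed in the higher direction. With the block the log2 fold change was 0.21 (SE 0.0403, edgeR adjusted p = 0.00153). Within set 2 alone it was 0.17 (edgeR adjusted p = 0.0797) and within set 3 alone 0.26 (edgeR adjusted p = 0.0825), neither of them called. The call with genotype alone was fragile: leaving out any of 10 of the 14 libraries ended it (adjusted p at most 0.0949), whereas with the block it held whichever of the 14 was left out (adjusted p 2.65e-04 to 0.00598). A term for labelled sex ended the call with genotype alone (edgeR adjusted p = 0.159) and not with the block (edgeR adjusted p = 0.0325). That term used the labels, which the X- and Y-linked transcripts of WT 1 and WT 6 went against. It therefore did not adjust for the sex that the transcripts show. Without WT 1 and WT 6, labels and transcripts matched in every library kept, and WT 2 was the only WT library labelled male. There, with labelled sex as a term and no block, Igfbp5 was 0.18 (SE 0.0897, edgeR adjusted p = 0.666) and was not called. That fit called 0 of all genes higher.

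Igfbp2, a binding protein abundant in the developing brain, lies next to Igfbp5 at chr1:72824503-72852474 on the plus strand. It ranged from 77.8 to 127 CPM in Riknull brains (median 104) and from 58.2 to 107 CPM in WT brains (median 68.7). The overlap came from set 2, where both genotypes were high: 112 to 127 CPM in Riknull and 104 to 107 CPM in WT. In set 3 both were low, at 77.8 to 84.4 CPM in Riknull and 58.2 to 68.2 CPM in WT, and in set 1 the values were 96.5 CPM in Riknull and 69.1 CPM in WT. Igfbp2 thus lay higher in Riknull brains within each set, although the difference between sets 2 and 3 exceeded that between genotypes.

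With genotype alone the log2 fold change of Igfbp2 was 0.39 (SE 0.149, edgeR adjusted p = 0.161) and was not called. With the block it was 0.30 (SE 0.0450, edgeR adjusted p = 1.35e-04). Within set 3 alone, with 3 libraries of each genotype, it was 0.35 (edgeR adjusted p = 0.0253), and within set 2 alone 0.19 (edgeR adjusted p = 0.0759).

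Igf2r lies at chr17:12682406-12769664 on the minus strand, 23.1 Mb from Rik on the same chromosome. Its level was 44.0 to 58.1 CPM in Riknull brains (median 45.8) and 37.2 to 48.7 CPM in WT brains (median 44.3). Here set 3 was the high one, at 55.4 to 58.1 CPM in Riknull and 45.7 to 48.7 CPM in WT. Set 2 gave 44.0 to 45.7 CPM in Riknull and 38.0 to 42.9 CPM in WT, and set 1 gave 46.0 CPM in Riknull and 37.2 CPM in WT. Again every Riknull library lay above the WT libraries of its set. In all, 3 of the 9 members (Igfbp5, Igfbp2 and Igf2r) had this pattern, beside 3.96% of all tested genes. In set 1 the pattern rests on 1 library of each genotype, and the sets came from these same counts.

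The log2 fold change of Igf2r was 0.20 with genotype alone (SE 0.0825, edgeR adjusted p = 0.205), which was not called, and 0.23 with the block (SE 0.0385, edgeR adjusted p = 3.91e-04). It was 0.28 within set 3 alone (edgeR adjusted p = 0.0311) and 0.16 within set 2 alone (edgeR adjusted p = 0.192), where it was not called. Airn, the noncoding antisense RNA that silences the paternal Igf2r copy in many mouse tissues, overlaps Igf2r and had 1044 counts in all libraries together, against 15054 for Igf2r. Airn had a log2 fold change of -0.13 (edgeR adjusted p = 0.773). Because the counting strand was not given in the sources used here, reads of the overlapping pair cannot be told apart.

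Igf2, at chr7:142650766-142666816 on the minus strand, was the scarcest member, with 15 to 80 counts per library. It measured 2.02 to 3.51 CPM in Riknull brains (median 2.13) and 0.818 to 2.65 CPM in WT brains (median 1.57). The 8 Riknull libraries were all at or above 2.02 CPM, and 4 of the 6 WT libraries lay below that level, WT 5 and WT 6 being the exceptions. The means were 2.39 ± 0.512 CPM in Riknull and 1.62 ± 0.704 CPM in WT. The log2 fold change was 0.52 with genotype alone (SE 0.221, edgeR adjusted p = 0.209), not called, and 0.60 with the block (SE 0.177, edgeR adjusted p = 0.0263).

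The blocked call of Igf2 was the least secure of the 4. Within set 2 alone Igf2 had a log2 fold change of 0.57 (edgeR adjusted p = 0.246) and within set 3 alone 0.48 (edgeR adjusted p = 0.351), not called in either. It was lost without Riknull 1, Riknull 7, WT 1, WT 3 or WT 4 (adjusted p up to 0.0755), and with labelled sex as a further term (adjusted p = 0.166). Igf2os, on the opposite strand, overlaps Igf2 and had 124 counts in all against 665 for Igf2, and reads of this pair cannot be told apart either.

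**Figure D2:**
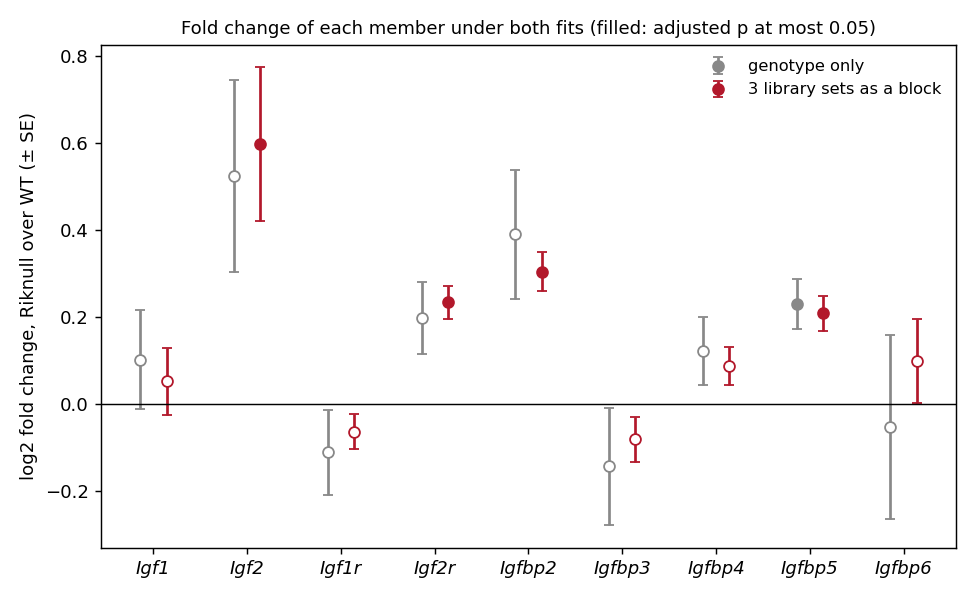
Log2 fold change of each member, Riknull over WT, with bars of ± 1 SE, for the fit with genotype alone (grey) and with the 3 library sets as a block (red). Filled symbols mark an adjusted p of at most 0.05: Igfbp5 in both fits, and Igf2, Igf2r and Igfbp2 with the block.

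H19, a maternally expressed noncoding RNA that shares enhancers with the paternally expressed Igf2, lies 72.6 kb from it and was called higher in Riknull brains in both fits. It measured 2.35 to 8.89 CPM in Riknull brains (median 5.83) and 1.26 to 4.31 CPM in WT brains (median 2.77). On the log2 scale the difference was 1.10 (SE 0.277, edgeR adjusted p = 0.0378) with genotype alone and 0.95 (SE 0.173, edgeR adjusted p = 9.04e-04) with the block. The call with genotype alone was lost when any of 8 libraries was left out (adjusted p up to 0.0873). Of the 15 tested genes in a list of imprinted genes, H19 was the gene called with genotype alone, and the list's median log2 fold change was -0.01. Among all tested genes, 1.12% were called higher and 2.20% lower. Plagl1, an imprinted transcription factor known to activate Igf2 and H19, had a log2 fold change of 0.16 (adjusted p = 0.158, or 0.0466 with the block).

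Markers of meninges and choroid plexus, tissues that make Igf2, were compared in the same libraries. Of 15 meningeal fibroblast markers, 3 were called higher and none lower in Riknull brains: Dcn, a matrix proteoglycan, by 0.59, Slc22a6, an organic anion transporter, by 0.56, and Aldh1a2, which makes retinoic acid, by 0.50 on the log2 scale (edgeR adjusted p 0.00117, 0.0078 and 0.0257). Among all tested genes, 1.12% were called higher and 2.20% lower. Of the 15 meningeal markers 13 had a positive log2 fold change, and Slc22a2 (-0.36) and Foxc1 (-0.05) went the other way. The summed CPM of the list was 225 to 303 in Riknull brains and 174 to 254 in WT brains. With the block 8 of the 15 were called higher and none lower, in a fit that called 8.12% of all genes higher. Of 12 choroid plexus markers, 3 were also called higher: Folr1, a folate receptor, by 0.75, Sostdc1, a secreted BMP antagonist, by 0.47, and Ttr, the thyroid hormone carrier, by 0.37 (adjusted p 0.00399, 0.0113 and 0.0362). The sum of the choroid plexus list was 587 to 763 CPM in Riknull brains and 441 to 632 CPM in WT brains. With the block 6 of the 12 were called higher and none lower. No marker of either list was at 0 in any library.

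**Figure D3:**
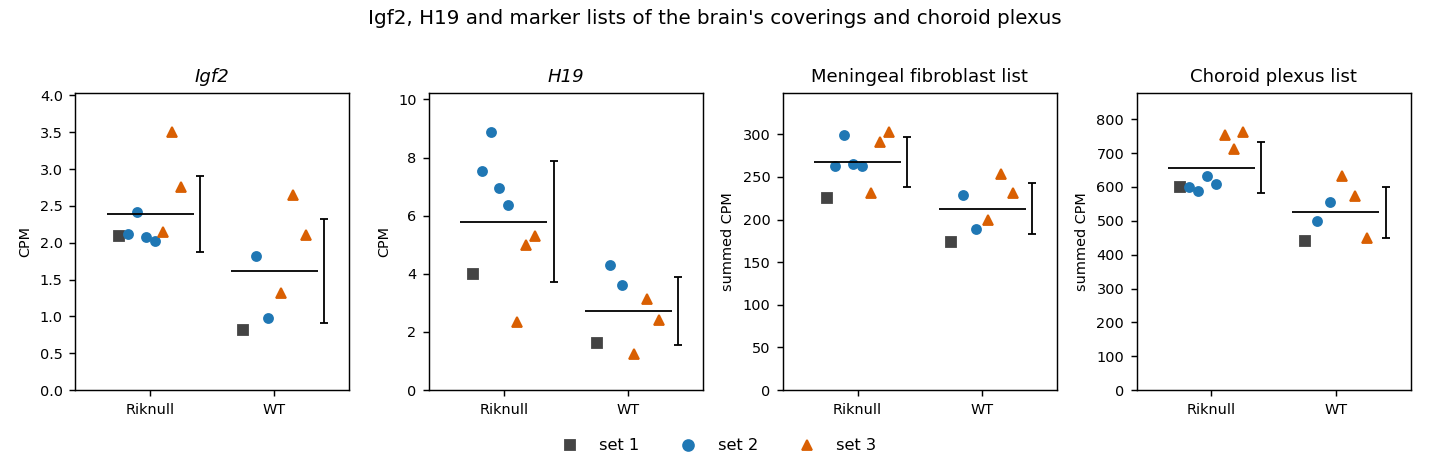
CPM of Igf2 and H19 and summed CPM of the meningeal fibroblast and choroid plexus lists in each library, Riknull left of WT, with means and ± 1 SD (n = 8 and 6) and symbols for library sets. All 4 quantities have a higher mean in Riknull brains, and the ranges overlap between genotypes.

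The part of these markers in the Igf2, H19 and Igfbp2 differences was not tested. In libraries of a whole tissue, fewer cells of a type and less RNA per cell cannot be told apart. Endothelial markers, which stand for the blood vessels that also make Igf2, lay on the other side: none of 9 had a positive log2 fold change, the median was -0.32, and 1 was called lower, the junction protein Cdh5 (-0.32, adjusted p = 0.0196). That 1 of 9 stands beside the 2.20% of all tested genes called lower. The summed CPM of the endothelial markers did not overlap, at 180 to 219.5 in Riknull and 223 to 278.5 in WT brains. With the block 6 of the 9 were called lower and none higher, in a fit that called 7.29% of all genes lower. All 4 astrocyte markers had a positive log2 fold change. Gfap, the astrocyte intermediate filament, was called higher (0.34, edgeR adjusted p = 0.00289), beside 1.12% of all tested genes. With the block all 4 were called higher, where 8.12% of all genes were. The summed CPM of the astrocyte markers did not overlap either, at 1232 to 1376 in Riknull and 1087 to 1142 in WT brains. Of 9 tested mural cell markers, 3 had a positive log2 fold change and the median was -0.03. Vtn, vitronectin, was called higher (0.21, edgeR adjusted p = 0.0143), beside the 1.12% of all tested genes called higher. Kcnj8, a potassium channel subunit named after its value was seen, had -0.39 (edgeR adjusted p = 0.142). Kcnj8 was called lower with the block (-0.49, edgeR adjusted p = 0.00115), a fit that called 1 mural marker higher and 1 lower. Of 8 microglial markers none was called by edgeR or DESeq2, and 1 had an unadjusted p under 0.05.

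Igf1, at chr10:87858265-87937042 on the plus strand, showed no call in either fit. It was 13.2 to 19.6 CPM in Riknull brains (median 16.8) and 11.7 to 19.6 CPM in WT brains (median 15.6), ranges that nearly coincide. The log2 fold change was 0.10 (SE 0.114, edgeR adjusted p = 0.675) with genotype alone and 0.05 (SE 0.0767, edgeR adjusted p = 0.704) with the block. Its direction turned between sets: 13.8 CPM in Riknull and 15.6 CPM in WT in set 1, and means of 15.6 CPM in Riknull and 13.5 CPM in WT in set 3.

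Igf1r, at chr7:67952827-68233668 on the plus strand, ran with the sets and not with genotype. In set 3 it was 67.3 to 69.3 CPM in Riknull and 67.5 to 71.8 CPM in WT. In set 2 it was 47.3 to 55.5 CPM in Riknull and 51.6 to 56.9 CPM in WT, and in set 1 it was 50.7 CPM in Riknull and 57.0 CPM in WT. All 6 libraries of set 3 therefore lay above the other 8. The log2 fold change was -0.11 (SE 0.0983, edgeR adjusted p = 0.578) with genotype alone and -0.06 (SE 0.0395, edgeR adjusted p = 0.303) with the block.

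Igfbp3, the main carrier of IGF1 in blood, lies at chr11:7206086-7213923 on the minus strand and followed the sets in the same way. It was 28.9 to 31.8 CPM in Riknull and 28.8 to 33.1 CPM in WT in set 3, and at most 23.0 CPM in Riknull and 24.2 CPM in WT in the other sets. Its log2 fold change was -0.14 (SE 0.135, edgeR adjusted p = 0.607), or -0.08 (SE 0.0523, edgeR adjusted p = 0.322) with the block.

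Igfbp4, which restrains IGF action until cleaved by the protease PAPP-A, lies at chr11:99041244-99054392 on the plus strand and ran opposite to Igfbp3. Set 3 held its lowest levels, 77.8 to 83.4 CPM in Riknull and 69.5 to 87.7 CPM in WT, and set 2 gave 96.3 to 104 CPM in Riknull and 91.3 to 92.2 CPM in WT. In set 1 it was 106 CPM in Riknull and 91.1 CPM in WT. Neither the 0.12 on the log2 scale with genotype alone (SE 0.0787, adjusted p = 0.429 by edgeR) nor the 0.09 with the block (SE 0.0430, adjusted p = 0.187) was called. Without WT 6 the blocked value was 0.13 (edgeR adjusted p = 0.0295).

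Igfbp6, a binding protein that prefers IGF2, lies at chr15:102144362-102149511 on the plus strand and had the widest relative range after Igf2. It was 8.58 to 17.6 CPM in Riknull brains (median 11.1) and 6.72 to 18.3 CPM in WT brains (median 13.1). Set 2 was low in both genotypes, at 8.58 to 9.73 CPM in Riknull and 6.72 to 8.19 CPM in WT, while sets 1 and 3 held every value above 12 CPM. The log2 fold change was -0.05 (SE 0.211, edgeR adjusted p = 0.92) with genotype alone and 0.10 (SE 0.0955, edgeR adjusted p = 0.541) with the block, so its sign depended on the fit.

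The levels of the members per length were compared by the deposited FPKM, a fragment count scaled by library size and by the exon length of the gene, over all 14 libraries. Igfbp2 was highest, with a median of 56.1 FPKM in Riknull and 36.9 FPKM in WT brains. Igfbp5 followed with 33.2 FPKM in Riknull and 27.6 FPKM in WT, and Igfbp4 with 21.7 FPKM in Riknull and 20.1 FPKM in WT. Igfbp6 had 9.92 FPKM in Riknull and 11.7 FPKM in WT, and Igfbp3 had 7.01 FPKM in Riknull and 8.38 FPKM in WT. The binding proteins thus stood above the receptors and the receptors above the ligands. These medians serve to compare members and do not measure the genotype difference. Set 2, where Igfbp2 was high in both genotypes, held 4 Riknull and 2 WT libraries.

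Among the receptors, Igf2r had a median of 4.90 FPKM in Riknull and 4.71 FPKM in WT, and Igf1r had 3.23 FPKM in Riknull and 3.68 FPKM in WT. Among the ligands, Igf1 had 1.69 FPKM in Riknull and 1.56 FPKM in WT, and Igf2 had 0.371 FPKM in Riknull and 0.272 FPKM in WT. Neighbours in this order overlapped in range over the libraries for Igfbp2 and Igfbp5, Igfbp4 and Igfbp6, Igfbp6 and Igfbp3, and Igf2r and Igf1r. The other neighbours did not overlap. FPKM rests on the exon length assigned to each gene, which is 1112 bases for Igfbp6 and 16791 bases for Igf1r, so isoforms that use less of the annotated length are understated.

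**Figure D4:**
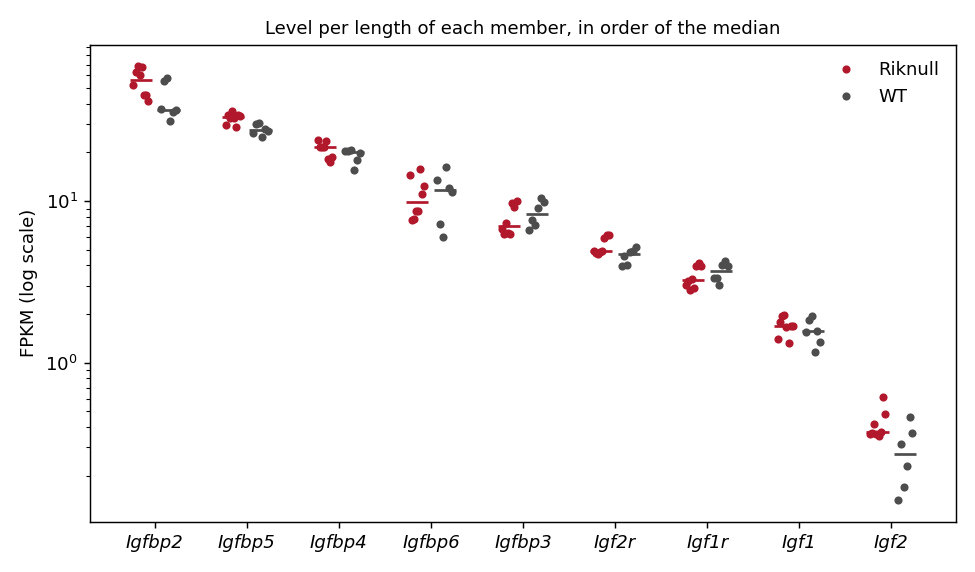
Deposited FPKM of each member on a log scale, in order of the median over all libraries, with 1 point per library, Riknull (red) left of WT (grey), and lines at group medians. Igfbp2 is highest at a median of 56.1 FPKM in Riknull and 36.9 FPKM in WT brains, and Igf2 is lowest at 0.371 FPKM in Riknull and 0.272 FPKM in WT brains.

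Across the 14 libraries the members formed opposed groups, in r values that take in differences between genotypes and between sets. In both genotypes the mean of Igf1r and of Igfbp3 was highest in set 3, and that of Igfbp2 and of Igfbp4 was lowest there. Whether the members run together within sets was not tested. As descriptions over log2 CPM, Pearson r was 0.88 between Igf1r and Igfbp3, -0.86 between Igf1r and Igfbp4, -0.82 between Igf1r and Igfbp2, and 0.77 between Igfbp2 and Igfbp4. Igf2 and Igf2r had r = 0.81, the neighbours Igfbp2 and Igfbp5 had r = 0.76, and Igf1 and Igfbp6 had r = -0.86.

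The genes most like each member were sought by the same r over 14 libraries among the 15815 tested genes that averaged 1 CPM or more. Closest to Igf1 was Dcx, doublecortin of immature neurons (r = 0.94), then Cnn3 and Nasp. Closest to Igf2 was Col6a2, a collagen VI chain (r = 0.95), then Lrch3 and Pakap, and Col6a2 was itself called higher in Riknull brains (log2 fold change 0.29, edgeR adjusted p = 0.0433). Igf1r was closest to Slc43a2, an amino acid transporter (r = 0.97), then Gpatch8 and Slf2, and Igf2r to Hipk2, a nuclear kinase (r = 0.98), then Ank3 and Gabrb2.

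Among the binding proteins, Igfbp2 was closest to Rcn1, Slc1a4 and Trim35 (r = 0.97 for Rcn1), Igfbp3 to Bptf, Ahnak and Dzank1 (r = 0.97 for Bptf), and Igfbp4 to Tmem200a, Gm5854 and Gm49329 (r = 0.93 for Tmem200a). Igfbp5 was closest to the transcription factor gene Mef2a, then Erc1 and Scaper (r = 0.96 for Mef2a). Igfbp6 was closest to Arhgef19, Aldh1a1 and Csrp1 (r = 0.97 for Arhgef19). With deviations from each genotype's mean in place of the values, 11 of these 27 genes were again among the closest 3. Differences between the library sets were left in both versions.

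The rest of the pathway was read through 7 lists of 78 genes, of which 72 were tested. With genotype alone 4 were called: Mtor and H19 higher, and Rps6kb2 and Gga3 lower in Riknull brains. Those are 2.78% of the tested genes of the lists in each direction, beside 1.12% higher and 2.20% lower among all genes. With the block 14 were called, 8 higher (11.1%) and 6 lower (8.33%), shares near the 8.12% and 7.29% of all genes in that fit.

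**Figure D5:**
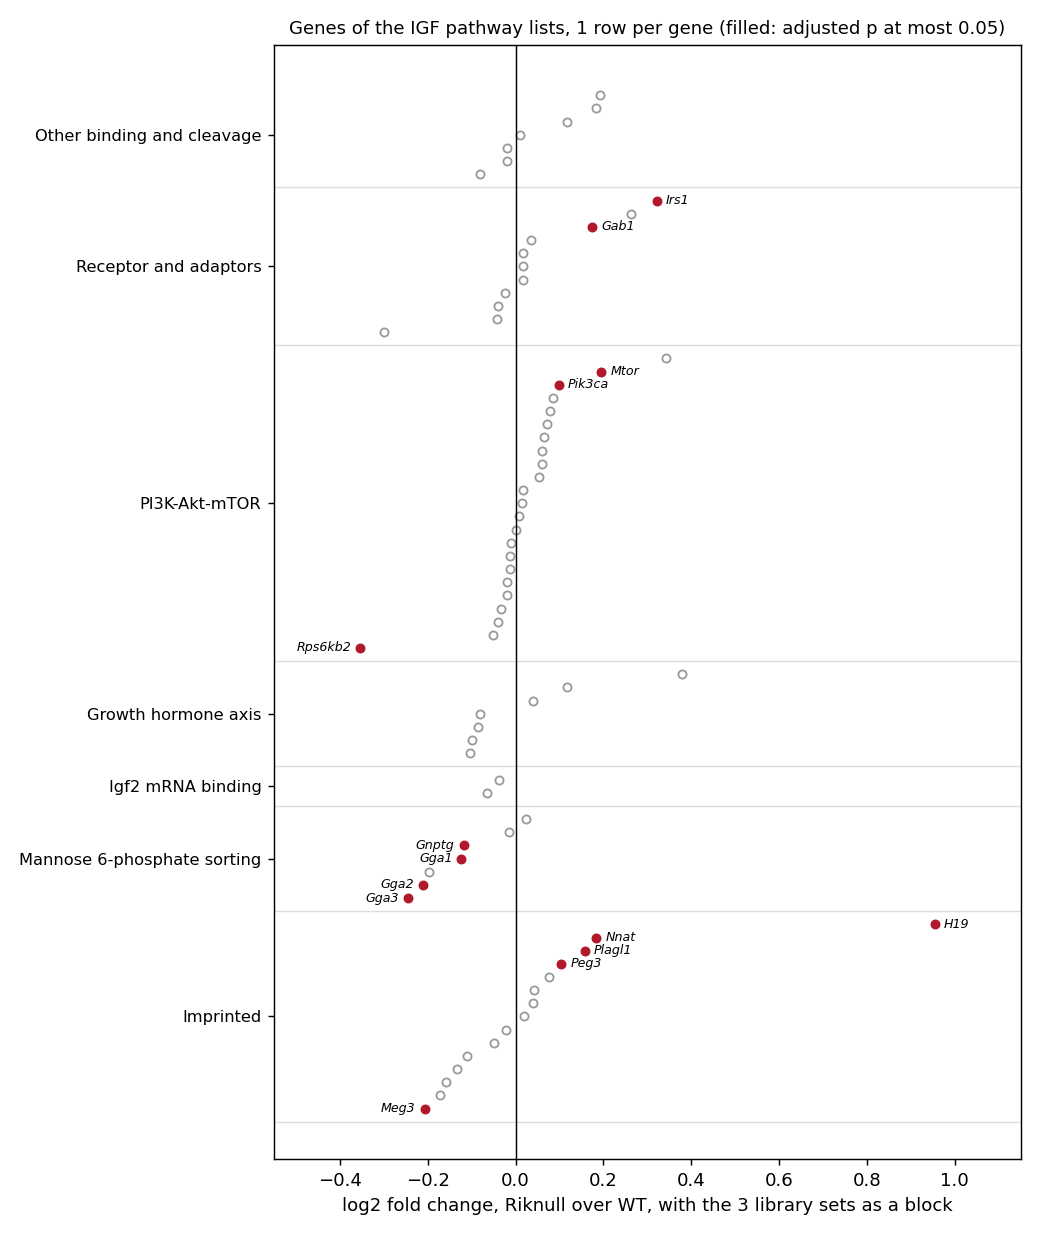
Log2 fold change, Riknull over WT with the 3 library sets as a block, of the 72 tested genes of the 7 pathway lists, 1 row per gene. Filled, named points have an adjusted p of at most 0.05: 8 lie above 0, with H19 farthest at 0.95, and 6 lie below 0, with Rps6kb2 farthest at -0.35.

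Proteins that bind, cleave or release IGF outside the cell gave no call. Of 7 tested genes none was called by edgeR, none had an unadjusted p under 0.05 and none was called by DESeq2. Igfbp7 had a log2 fold change of -0.07 (adjusted p = 0.48), Igfbpl1 of 0.44 (adjusted p = 0.57), and Htra1, a protease that cleaves binding proteins, of -0.03 (adjusted p = 0.794). The proteases Pappa and Pappa2 had 0.23 and 0.19 (adjusted p 0.445 and 0.512), and their inhibitor Stc2 had 0.04 (adjusted p = 0.907). The SE of Igfbpl1 was 0.377, the widest of those named here, and its levels spread with the sets.

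Of 11 receptor and adaptor genes none was called by edgeR with genotype alone, 2 had an unadjusted p under 0.05 and DESeq2 called 1. Insr, the insulin receptor, had a log2 fold change of -0.02 (adjusted p = 0.929) and Irs2, an insulin receptor substrate, of -0.01 (adjusted p = 0.958). Irs1, the substrate that couples the IGF1 receptor to PI3K, measured 10.2 to 14.8 CPM in Riknull brains and 8.12 to 12.03 CPM in WT brains. Its log2 fold change was 0.30 (adjusted p = 0.123) with genotype alone and 0.32 (adjusted p = 0.00294) with the block. Irs1 lay higher in Riknull than in WT within each set. The docking protein Gab1, named after its value was seen, was the other gene of this list called with the block (0.17, adjusted p = 0.00219).

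In the PI3K, Akt and mTOR list of 23 genes, 1 was called higher and 1 lower. Among all tested genes, 1.12% were called higher and 2.20% lower. Mtor, the kinase at the centre of growth control, was 122 to 147 CPM in Riknull brains and 111 to 127 CPM in WT brains, a difference of 0.19 in log2 (SE 0.0462, edgeR adjusted p = 0.032). Leaving out any of 6 libraries ended that call (adjusted p up to 0.0684), and with the block it was 0.19 again (adjusted p = 1.86e-04). Rps6kb2, an S6 kinase below mTOR, was 31.1 to 36.6 CPM in Riknull brains and 40.9 to 46.2 CPM in WT brains. The difference was -0.37 in log2 (SE 0.0443, edgeR adjusted p = 4.22e-04). Rps6kb2 kept its call whichever of the 14 libraries was left out (edgeR adjusted p up to 0.00197). The median of the list was 0.01.

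The mannose 6-phosphate sorting list pairs with Igf2r. Of its 7 genes, 1 was called lower with genotype alone, 5 had an unadjusted p under 0.05, 6 had a negative log2 fold change and the median was -0.13. Over all 18170 genes tested, 2.20% were called lower with genotype alone and 3379 had an unadjusted p under 0.05. Gga3, a Golgi adaptor that loads mannose 6-phosphate receptors into vesicles, was 66.1 to 76.3 CPM in Riknull brains and 76.3 to 91.5 CPM in WT brains, a difference of -0.27 in log2 (SE 0.0485, edgeR adjusted p = 0.0055). The highest Riknull library, at 76.27 CPM, and the lowest WT library, at 76.32 CPM, almost touched. With the block 4 of the 7 were called lower, Gga3, Gga2, Gga1 and Gnptg, in a fit that called 7.29% of all genes lower. The summed CPM of the list was 407 to 441 in Riknull brains and 442 to 462 in WT brains. M6pr, the cation-dependent mannose 6-phosphate receptor, had a log2 fold change of -0.03 (adjusted p = 0.76), beside the 0.20 of Igf2r.

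In the growth hormone list, which acts on Igf1 outside the brain, 7 of 9 genes were tested and none was called by edgeR or DESeq2 or had an unadjusted p under 0.05. Ghr, the growth hormone receptor, was 8.66 ± 0.36 CPM in Riknull and 9.09 ± 0.707 CPM in WT brains (SD, n = 8 and 6), a log2 fold change of -0.07 (adjusted p = 0.597). Of the Igf2 mRNA binding proteins, 2 of 3 were tested, none was called by edgeR or DESeq2 or had an unadjusted p under 0.05, and Igf2bp3 had a log2 fold change of -0.12 (adjusted p = 0.643).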

How the data were processed

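RNA-seq libraries from 14 P14 mouse brains were sequenced and first analysed by a commercial provider. The authors deposited 1 table of raw read counts per gene, FPKM per gene and gene lengths. The submitters' processing notes name mm10, yet 1537 of 52125 gene starts shared with GENCODE M21 matched that build's, so positions were taken from GENCODE M21 (GRCm38) by gene ID. Aligner, counter and counting strand were not given in the sources used here. Columns holding the authors' own fold changes and p-values were not used.

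Counts were tested with edgeR 4.0.16 quasi-likelihood (TMM scaling, filterByExpr, R 4.3.3), Riknull over WT, with Benjamini-Hochberg adjustment over 18170 genes, and the SE was the log2 fold change divided by the root of F. The function was tested on simulated data. The study used DESeq2, which served here (1.42.0) as an alternative. Log2 CPM used a prior count of 2. FPKM was described and not tested. Replicates are separate mice. Genes were named by rule: the members, a fixed set of pathway genes, the called genes with the smallest adjusted p in each list (up to 4, or 3 for markers), and the closest 3 genes per member. A gene of the fixed set is not reported here. The members, lists and alternatives were chosen with earlier results of these data known. Alternatives covered scaling, filters, labelled sex, library sets, the replicate block and each library left out.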

Additional observations from a re-analysis of the deposited data

How the results depend on the processing

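The number of members called, 1 with genotype alone, was 0 with no count filter, with labelled sex as a term, in libraries labelled male, with labelled sex and without WT 1 and WT 6, within either of 2 library sets, and without Riknull 5 and Riknull 8, and it was 3 with the 2 sets as a block, 4 with the 3 sets as a block and 2 within set 3 of 3. It was 0 to 1 over the 14 libraries left out in turn, and 3 to 5 with the 3 sets as a block. For pathway genes, 4 calls became 6 with DESeq2, 1 with labelled sex, 0 in libraries labelled male, 0 with labelled sex and without WT 1 and WT 6, 8 with the 2 sets, 1 within set 1 of 2, 2 without Riknull 5 and Riknull 8, and 14 with the 3 sets (2 to 6 with a library left out).

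Over all genes, the 203 higher and 399 lower calls became 529 and 604 with DESeq2, 88 higher with no filter, 43 and 110 with labelled sex, 1 and 6 in libraries labelled male, 0 and 8 with labelled sex and without WT 1 and WT 6, 693 and 829 with the 2 sets, 4 and 42 within set 1 of 2, 73 and 237 without Riknull 5 and Riknull 8, 1475 and 1325 with the 3 sets, and 202 lower within set 3 of 3. With a library left out they ranged over 78 to 340 higher and 203 to 480 lower. Of the 27 closest genes, 11 stayed with deviations from genotype means.

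Log2 fold changes turned sign for 5 members, none of them called with genotype alone. Igf1 was -0.022 in libraries labelled male, -0.028 with labelled sex and without WT 1 and WT 6, -0.048 within set 2 of 2 and -0.039 with the 3 sets and labelled sex. In libraries labelled male Igf1r was 0.046, Igfbp3 0.15 and Igfbp4 -0.0016. The WT libraries labelled male were only WT 1, which had female transcripts, and WT 2. Neither was in set 3, which held Riknull 6, 7 and 8, so sets and genotype were not balanced there. Igfbp6 was 0.10 in libraries labelled male, 0.12 with labelled sex and without WT 1 and WT 6, 0.10 with the 2 sets, 0.0018 within set 1 of 2, 0.30 within set 2 of 2 and 0.10 with the 3 sets, and it spanned -0.17 to 0.094 over libraries left out. The cause was not tested.

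Replicate numbers 1 to 6 occur in both genotypes, but deviations of same-numbered libraries correlated from -0.337 to 0.316, so the numbers were not taken as pairs. The replicate block left out Riknull 7 and Riknull 8, both of set 3, so its values are not from the same libraries as the main fit. There 1 member was called, Igfbp2 (0.51, edgeR adjusted p = 0.0234), and Igfbp5 was not (0.21, edgeR adjusted p = 0.0592). Depth limits Igf2 most, at 15 to 80 counts per library.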
